A study of Rattus norvegicus with 6 samples.

Results

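Ribosomal protein genes, cytosolic and mitochondrial, were measured in rat AR42J cells kept with or without dexamethasone. The members were the probe sets whose platform gene symbol starts with Rpl, Rps, Mrpl or Mrps followed by a digit, or with Rplp or Rpsa. The Rps6k kinase genes were left out, and where a gene had several probe sets the brightest was used, by its mean log2 signal on the 6 arrays. This gave 115 of the 10411 genes on the array that had a probe set with a single symbol. Of these, 44 were cytosolic, with 30 in the large and 14 in the small subunit, and 71 were mitochondrial, with 45 in the large and 26 in the small subunit. They came from 132 probe sets, and 13 genes had more than 1. A further 34 probe sets whose several listed symbols included a ribosomal protein were not named and were counted apart.

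AR42J is an established rat line from an acinar (enzyme-secreting) tumour of the pancreas, and dexamethasone is a synthetic agonist of the glucocorticoid receptor. The treated cultures (n = 3) received 100 nM dexamethasone for 48 h in 5% serum. The control cultures (n = 3) had the same 48 h in 5% serum without it, and both groups started from passage 29 cells that had been plated for 24 h in 20% serum. A treated and a control culture were made side by side in each of 3 experiments over 5 months, and the RNA of each culture went onto 1 Affymetrix Rat 230A array. All cultures were of 1 cell line at 1 dose and 1 time, so the spread given here is between cultures.

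A ribosome has a small subunit that reads the mRNA and a large subunit that joins the amino acids. The cytosolic ribosome makes nearly all proteins of the cell, and in acinar cells, which secrete digestive enzymes in bulk, it is abundant on the endoplasmic reticulum. The mRNAs of its proteins begin with a run of pyrimidines, the 5′ terminal oligopyrimidine tract, through which the kinase complex mTORC1 and the RNA-binding protein Larp1 control their translation. The mitochondrial ribosome makes the respiratory chain subunits that mitochondrial DNA encodes, but its own proteins are encoded in the nucleus, translated in the cytosol and imported.

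Values are MAS5 signals on a linear scale, each array having a trimmed mean of about 500. A signal is therefore a share of what its array measured, and in these bulk cultures fewer cells of a kind and less RNA per cell cannot be told apart. Changes are log2, dexamethasone minus control, with their standard error and adjusted p from limma with Benjamini-Hochberg adjustment over 9520 probe sets, and a gene was called higher or lower at an adjusted p under 0.05. Over all probe sets tested, 15.9% were called higher and 21.2% lower. Acinar markers were above background on every array for 12 of 12 genes. Their summed signals were 137180 to 150940 in dexamethasone and 83330 to 99715 in control cultures. Of 11 tested, 8 were higher and 0 lower, but 6 were higher and 2 lower when the arrays were quantile normalised. All 8 proliferation markers were lower, with summed signals of 2349 to 2706 in dexamethasone and 18469 to 19498 in control cultures. Of 14 stromal, endothelial or immune markers, summed at 1586 to 1730 in dexamethasone and 1316 to 1390 in control cultures, 3 were bright enough to test and Pecam1 was higher, while Lum, Kdr, Ptprc and Itgam were above background on no array. The part these markers' shifts play in the results on ribosomal protein genes was not tested.

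Of the 115 genes, 112 were bright enough to test. The exceptions were all cytosolic symbols: Rpl3l, the striated muscle form of Rpl3, Rps4y2, and Rpl30, whose probe set was dim (86 ± 36.1 in dexamethasone and 87.2 ± 14.7 in control cultures, SD). With dexamethasone, 25 of 41 tested cytosolic genes and 12 of 71 mitochondrial genes were higher, and 0 cytosolic and 7 mitochondrial genes were lower, but none of the 25 cytosolic rises was called when the arrays were quantile normalised (17.1% of all probe sets were then higher and 18.5% lower). Cytosolic genes moved little and much alike, with changes of 0.01 to 0.47. Mitochondrial genes moved further and both ways, with changes of -0.61 to 0.73.

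**Figure D1:**
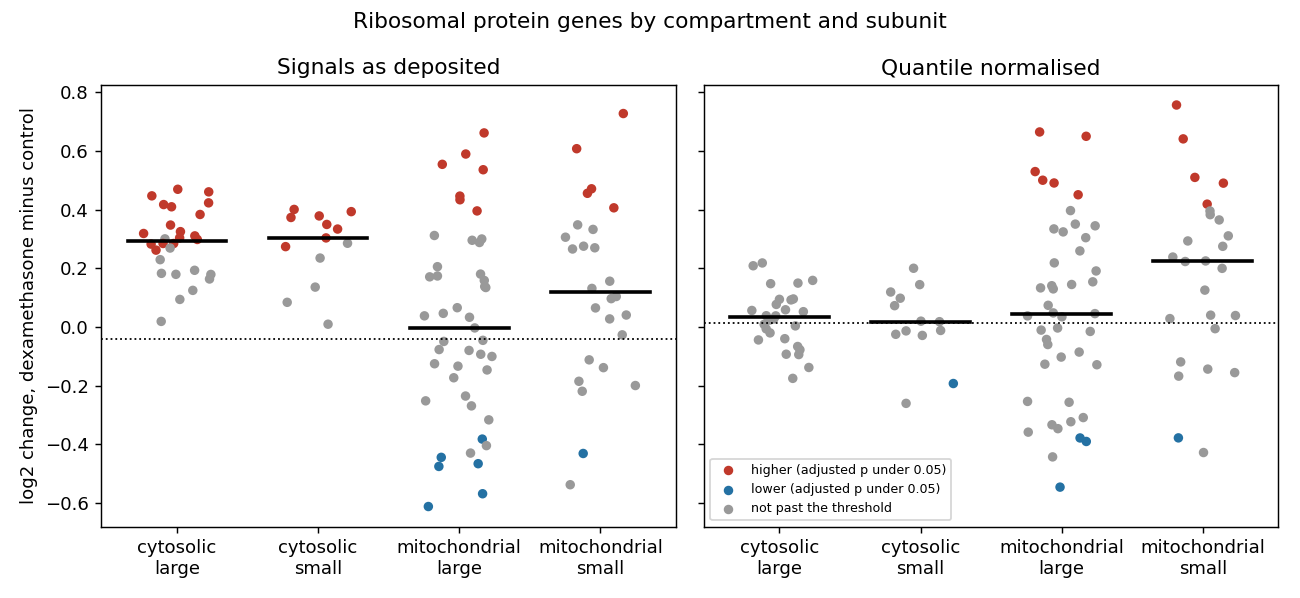
Log2 change, dexamethasone minus control (vertical axis), of each tested ribosomal protein gene by compartment and subunit, for signals as deposited (left) and after quantile normalisation (right). Points are genes, coloured by the adjusted p and direction, bars are medians and the dotted line is the median of all 7051 genes tested. The cytosolic medians of 0.29 (large) and 0.30 (small) lie above the dotted line at left and come down to 0.03 and 0.02 at right, where 0 cytosolic genes are called higher, while the mitochondrial genes keep their wide spread.

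In the cytosolic large subunit, 17 of 28 tested genes rose and 0 fell on the signals as deposited. These are 60.7% and 0%, against 15.9% and 21.2% of all probe sets. The largest rises were those of Rpl4, Rpl23, Rpl37a and Rpl21. Rpl4, part of the wall of the tunnel through which the new protein leaves, had signals of 13455, 12016 and 12458 in dexamethasone and 8009.5, 11288 and 8399 in control cultures. Control 2 was the highest control and the dexamethasone cultures were all above it (log2 change 0.47 ± 0.13, adjusted p = 0.0183, limma). Rpl23, which faces the small subunit and is the site where the factor Eif6 binds, had 20922, 19995 and 21972 in dexamethasone and 13935, 18083 and 14006 in control cultures. Again the groups did not overlap and control 2 lay closest to the dexamethasone cultures (0.46 ± 0.11, adjusted p = 0.0102).

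Rpl37a, a small zinc-binding protein of the subunit core, had 23274, 21958 and 22958 in dexamethasone and 14926, 19683 and 15774 in control cultures (0.45 ± 0.10, adjusted p = 0.00964). Rpl21 had 7504, 8354 and 7859 in dexamethasone and 5488, 6579.8 and 5663 in control cultures (0.42 ± 0.09, adjusted p = 0.00724). For both genes every dexamethasone culture was above every control culture. Rpl21 is 1 of the 7 tested cytosolic members with a mean signal of 10000 or less, and of the 25 rises it was the one still called with each replicate pair left out in turn. By their known roles, and with values already known, further members were picked out. Rplp0, the base of the stalk that recruits translation factors, rose (0.35 ± 0.11, adjusted p = 0.0343), as did Rpl5 (0.32 ± 0.09, adjusted p = 0.0167), which with Rpl11 carries 5S rRNA into the subunit. Rpl11 itself averaged 11620 ± 1632 in dexamethasone and 10214 ± 652 in control cultures (SD, n = 3 each) and did not pass the threshold (0.18 ± 0.09, adjusted p = 0.157). The 11 large subunit genes not past the threshold ranged from 0.02 (Rpl39) to 0.30 (Rpl41).

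In the cytosolic small subunit, 8 of 13 tested genes rose and 0 fell (61.5% and 0%, against 15.9% and 21.2% of all probe sets). Rps28, near the path of the mRNA, led with 16940, 15138 and 16241 in dexamethasone and 11492, 13643 and 11553 in control cultures (0.40 ± 0.10, adjusted p = 0.0137). Rps15, a protein of the subunit head, had 14762, 13907 and 14306 in dexamethasone and 9775, 12783 and 10383 in control cultures (0.39 ± 0.11, adjusted p = 0.0187). In each case control 2 was the highest control and lay below every dexamethasone culture. Rpsa, also known as the laminin receptor precursor, had 17101, 15054 and 16020 in dexamethasone and 11882, 13479 and 11727 in control cultures (0.38 ± 0.10, adjusted p = 0.0146). A second Rpsa probe set rose too (0.42 ± 0.11, adjusted p = 0.0161), and the remaining one was not past the threshold (0.29 ± 0.11, adjusted p = 0.0706). Rps24, which is needed to mature the rRNA of the small subunit, had 18104, 18078 and 17285 in dexamethasone and 13300, 15094 and 12977 in control cultures, with no overlap (0.37 ± 0.08, adjusted p = 0.00814). Its second probe set, with mean signals of 831 ± 162 in dexamethasone and 735 ± 90.6 in control cultures, did not pass (0.16 ± 0.18, adjusted p = 0.518). Rps6, the substrate of the S6 kinases, rose (0.30 ± 0.09, adjusted p = 0.0308), and Rps15a had the change nearest to 0 (0.01 ± 0.11, adjusted p = 0.957).

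The divergent paralogues did not pass the threshold. Rpl7l1, a relative of Rpl7 found in assembling large subunits of human cells, had 2265, 1784 and 1880.1 in dexamethasone and 1765, 1608 and 1793 in control cultures, which overlap (0.19 ± 0.12, adjusted p = 0.241). Rpl7 rose (0.42 ± 0.09, adjusted p = 0.00848). Rps27l, a relative of Rps27 that p53 induces in human cells, had 509.5, 404 and 338 in dexamethasone and 352, 417 and 399 in control cultures, also overlapping (0.08 ± 0.19, adjusted p = 0.758).

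Taken by subunit, the cytosolic medians were 0.29 for the large and 0.30 for the small subunit, a difference of -0.01. The spread among the genes was 0.11 (large) and 0.13 (small) (SD). In pairs 1 to 3 the medians were 0.34, 0.15 and 0.38 for the large and 0.44, 0.15 and 0.41 for the small subunit. Over the 41 genes together the median was 0.30, a fold of 1.23, against -0.04 over all 7051 genes tested, and 41 of 41 changes were positive. Every dexamethasone culture was above every control culture for 27 of the 41 genes, against 22% of all probe sets. By replicate pair the cytosolic median was 0.37 in pair 1, 0.15 in pair 2 and 0.39 in pair 3. Control 2 was the highest control for 36 of 41 genes, against 2827 of all 7051 genes tested. Calls of higher numbered 3 without pair 1 (10.9% of all probe sets), 29 without pair 2 (11.9%) and 9 without pair 3 (13%).

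**Figure D2:**
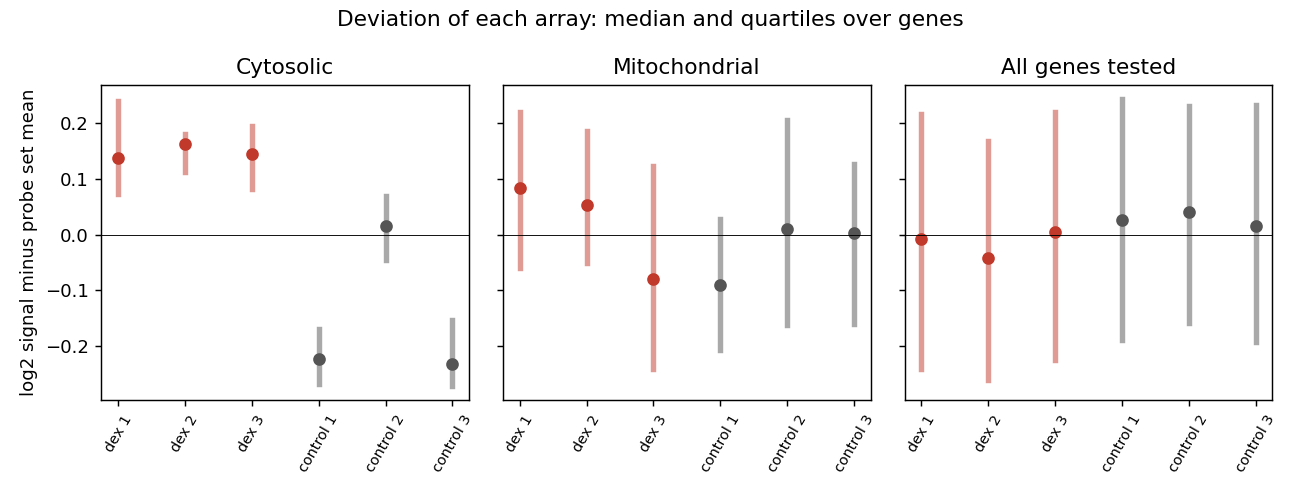
Median (point) and quartiles (bar) over genes of the log2 signal of each array minus the probe set's mean over the 6 arrays, for cytosolic and mitochondrial ribosomal protein genes and all genes tested. The dexamethasone arrays (dex) lie at 0.14, 0.16 and 0.14 for cytosolic genes, against -0.22, 0.02 and -0.23 on the control arrays, so control 2 is nearest to the treated arrays. Mitochondrial genes show no such separation, at 0.08, 0.05 and -0.08 on the dexamethasone arrays and -0.09, 0.01 and 0.00 on the control arrays.

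The brightness of the cytosolic probe sets moved with this result. Of the 41 tested, 34 had a mean signal over 10000, and 23 of these were higher, with a median change of 0.30, while 2 of the 7 dimmer ones were higher, with a median of 0.19. Among 61 probe sets of that brightness that belong to no ribosomal protein, 42.6% were higher and 6.56% lower, with a median of 0.20, whereas probe sets with a signal under 1000 had a median of -0.07. Quantile normalisation, which makes the distribution of signals equal on all arrays, brought the bright ribosomal protein genes to a median of 0.01 and the other bright probe sets to -0.09 (13.1% higher, 29.5% lower). It left 0 of 41 cytosolic genes higher, called Rps3a lower (-0.19, adjusted p = 0.0422, against 0.14 and 0.285 as deposited) and turned the sign of 6 of the 25 rises. The part of signal brightness in the cytosolic shift was not tested. The 34 probe sets with several symbols had a like pattern, with 24 higher, 1 lower and a median of 0.29 as deposited and of 0.00 after quantile normalisation.

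**Figure D3:**
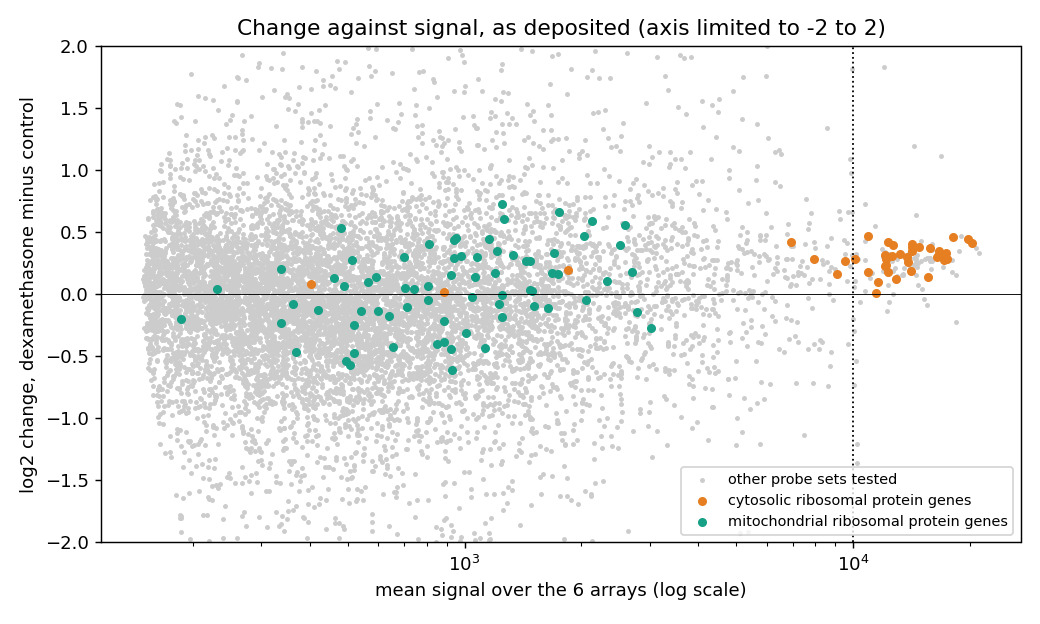
Log2 change, dexamethasone minus control, against the mean signal over the 6 arrays (log scale) for all probe sets tested (grey), cytosolic (orange) and mitochondrial (green) ribosomal protein genes. The vertical dotted line marks a signal of 10000. Most cytosolic genes (34 of 41) lie to its right, and all mitochondrial genes lie to its left. Grey points right of the line also tend to lie above 0. They include 25 of the 34 probe sets whose several symbols include a ribosomal protein, so not all of them are outside the family.

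The letters around the annotated transcription start are shown for the named cytosolic genes with the largest rises, all but Rpl37a, because the pyrimidine tract is the feature their mRNAs are known for. The 50 bases run 5′ to 3′ on the gene's strand, 25 before the start and 25 from it on, from RefSeq (GRCr8), and capitals mark the longest run of C and T of at least 8 bases. The genes lie at chr8:73566452-73566501 (Rpl4, plus strand), chr10:83272160-83272209 (Rpl23, minus), chr12:13386129-13386178 (Rpl21, minus), chr7:15311309-15311358 (Rps28, minus), chr7:10068091-10068140 (Rps15, minus), chr8:128728854-128728903 (Rpsa, plus) and chr16:96492-96541 (Rps24, plus).
Rpl4: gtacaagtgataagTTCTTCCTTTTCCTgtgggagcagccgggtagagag
Rpl23: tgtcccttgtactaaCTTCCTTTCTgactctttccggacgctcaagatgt
Rpl21: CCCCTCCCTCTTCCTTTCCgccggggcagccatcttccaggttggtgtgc
Rps28: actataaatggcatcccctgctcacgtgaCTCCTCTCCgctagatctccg
Rps15: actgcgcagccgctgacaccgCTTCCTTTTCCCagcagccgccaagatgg
Rpsa: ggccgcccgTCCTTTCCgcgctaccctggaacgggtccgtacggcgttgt
Rps24: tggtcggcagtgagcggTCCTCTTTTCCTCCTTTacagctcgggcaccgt
The runs were 14, 10, 19, 9, 12, 8 and 17 bases long in that order. That of Rps28 lies wholly after the annotated start, from base 5 on. Those of Rpl23, Rpl21 and Rpsa lie wholly before it, from bases -10, -25 (the edge of the window) and -16 on. By this annotation the runs of Rpl23, Rpl21 and Rpsa are outside the mRNA. A promoter was found for 94 of the 115 members, and a run of at least 8 on the gene's strand within 25 bases of the start was present in 26 of 37 cytosolic (70.3%) and 14 of 57 mitochondrial promoters (24.6%), against 19.3% of 27457 genes. Among cytosolic genes tested, the median change was 0.31 for the 24 with a run and 0.26 for the 11 without. The difference is smaller than the spread among the genes (SD 0.12), which is not an error of that difference.

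Among the mitochondrial ribosomal protein genes, 12 of 71 rose, 7 fell and 52 were not past the threshold. The shares of 16.9% higher and 9.86% lower are to be read against 15.9% and 21.2% over all probe sets tested. In the large subunit 7 of 45 were higher and 6 lower, with a median of -0.00, and in the small subunit 5 of 26 were higher and 1 lower, with a median of 0.12. With a pair left out, higher calls numbered 7 (without pair 1), 4 (pair 2) and 11 (pair 3), and lower calls 5, 1 and 1 (15.1%, 15.1% and 18.6% of all probe sets). Every dexamethasone culture lay above every control culture for 19 genes and below for 9, against 22% and 27.8% of all probe sets. The difference between the subunit medians, -0.12, is smaller than the spread among genes of a subunit (SD 0.33 large, 0.31 small). That spread is not an error of the difference. In pairs 1 to 3 the large subunit median was 0.09, 0.01 and -0.07. The small subunit median was 0.26, 0.14 and 0.02, higher in each pair. Mrps18a and Mrps30 are small subunit genes by symbol whose proteins sit in the large subunit of the mammalian ribosome, and with them moved the difference was -0.07.

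**Figure D4:**
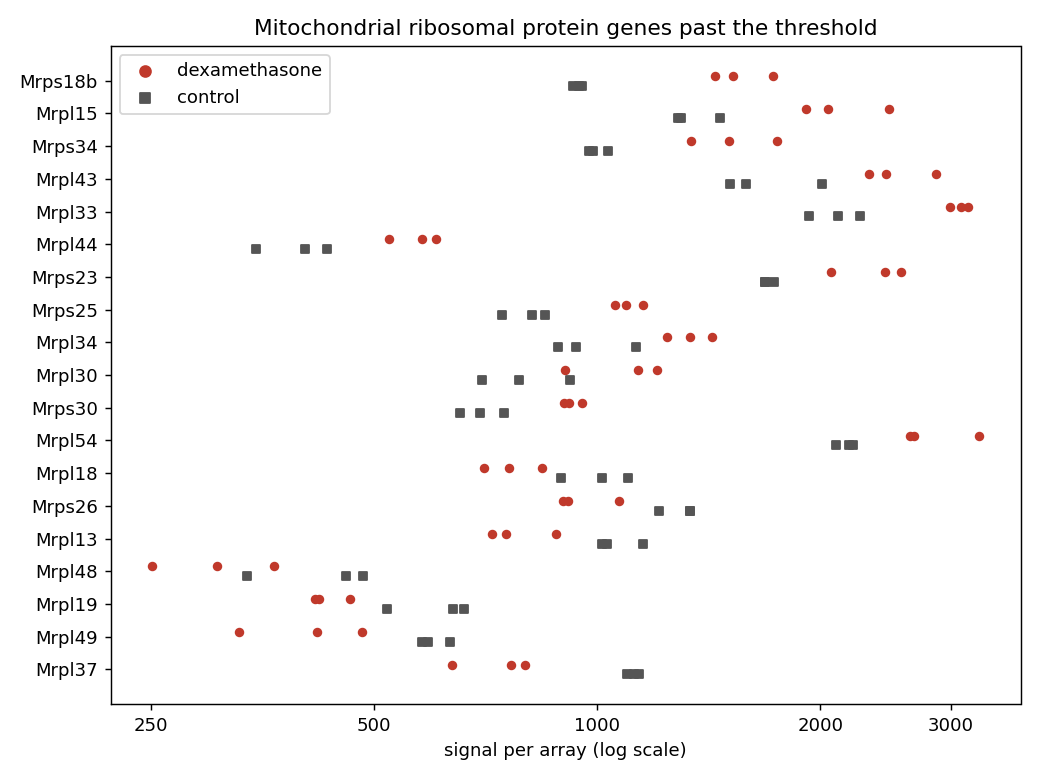
Signal per array (log scale) of the 19 mitochondrial ribosomal protein genes past the threshold, for dexamethasone (circles) and control cultures (squares), from the largest rise at the top to the largest fall at the bottom. The groups are apart for 17 genes and overlap for Mrpl30 and Mrpl48.

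Mrps18b, a small subunit relative of bacterial S18, had the largest rise, with 1725, 1440 and 1524 in dexamethasone and 927, 953 and 945 in control cultures. The control cultures were nearly equal and all dexamethasone cultures were well above them (0.73 ± 0.13, a fold of 1.66, adjusted p = 0.00246). Mrps34, a protein found only in mitochondrial ribosomes and needed for a stable small subunit in mice, had 1504, 1749 and 1338 in dexamethasone and 974, 1036 and 986 in control cultures (0.61 ± 0.13, adjusted p = 0.00614). Mrps23 had 2448, 2572 and 2069.8 in dexamethasone and 1729.9, 1682 and 1682 in control cultures (0.47 ± 0.12, adjusted p = 0.0140). Mrps25 had 1094, 1152 and 1058 in dexamethasone and 745, 816 and 851 in control cultures (0.46 ± 0.13, adjusted p = 0.0246). The groups of these 3 genes did not overlap either. Mrps30 was the fifth small subunit gene that rose (0.41 ± 0.14, adjusted p = 0.0428).

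In the large subunit Mrpl15, the counterpart of bacterial L15, had 2472, 2045 and 1914 in dexamethasone and 1286, 1466 and 1298 in control cultures (0.66 ± 0.13, a fold of 1.58, adjusted p = 0.00482). Mrpl43, which has no bacterial counterpart, had 2453, 2867 and 2329 in dexamethasone and 1587, 2007 and 1510.0 in control cultures (0.59 ± 0.11, adjusted p = 0.00359). Both were apart in every array, with control 2 again the highest control. Mrpl33 had 3160.4, 3089.9 and 2995 in dexamethasone and 2261, 1932 and 2115 in control cultures (0.55 ± 0.11, adjusted p = 0.00464). Mrpl44, which carries a fold related to ribonuclease III, had 607, 523 and 580.3 in dexamethasone and 404, 347 and 432 in control cultures (0.54 ± 0.15, adjusted p = 0.0199). For these genes control 2 was the lowest control, and the groups did not overlap. Mrpl34, Mrpl30 and Mrpl54 rose by 0.45, 0.43 and 0.40 (adjusted p = 0.0237, 0.0424 and 0.0321).

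Mrpl37, a mitochondria-specific large subunit protein, had the largest fall, with 767, 800.5 and 638 in dexamethasone and 1121, 1137 and 1098 in control cultures. All dexamethasone cultures were below all controls (-0.61 ± 0.13, a fold of 0.654, adjusted p = 0.00728), and a second probe set fell as well (-0.46 ± 0.15, adjusted p = 0.0385). Mrpl49 had 482, 419 and 329 in dexamethasone and 581, 633 and 591 in control cultures (-0.57 ± 0.16, adjusted p = 0.0246), and its second probe set fell by 0.55 on the log2 scale (adjusted p = 0.0252). Both probe sets of Mrpl49 were without overlap. Mrpl19, the counterpart of bacterial L19, had 465, 422 and 417 in dexamethasone and 521, 661 and 639 in control cultures (-0.48 ± 0.16, adjusted p = 0.0443). Mrpl48 had 308, 367 and 251 in dexamethasone and 484, 459 and 337 in control cultures, and here 1 dexamethasone culture lay above the lowest control (-0.47 ± 0.16, adjusted p = 0.0493, and 0.0918 without the replicate block). Mrpl13 and Mrpl18, counterparts of bacterial L13 and L18, fell by 0.44 and 0.38 on the log2 scale (adjusted p = 0.0248 and 0.0437).

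Mrps26 was the small subunit gene that fell, with 914, 1069 and 899 in dexamethasone and 1334, 1333 and 1211 in control cultures, which do not overlap (-0.43 ± 0.13, adjusted p = 0.0265). Among second probe sets of members, none was called against the first. The rises and falls held differently under other processing. Mrps18b, Mrpl15 and Mrpl43 stayed higher, and Mrpl37 lower, under each of 13 other settings, and quantile normalisation kept 11 of the 12 rises and 3 of the 7 falls (Mrpl37, Mrpl13 and Mrps26). Scaling on the hybridisation controls shifted the median of all genes to -0.29 and left 3 mitochondrial genes higher and 15 lower (8.17% and 34.2% of all probe sets).

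By the numbering of the family, in which low numbers follow the bacterial proteins, 39 mitochondrial genes have a bacterial counterpart and 32 do not. Of the 39, 5 rose and 3 fell (12.8% and 7.69%, against 15.9% and 21.2% of all probe sets), with a median of 0.03. Of the 32, 7 rose and 4 fell (21.9% and 12.5%), with a median of 0.08. The medians are much closer to each other than the genes of either kind (SD 0.31 and 0.34). In pairs 1 to 3 the medians were 0.16, 0.06 and -0.13 with a counterpart and 0.13, 0.15 and 0.03 without. Mrpl12, which binds mitochondrial RNA polymerase, had a change of -0.09 ± 0.17 and Mrpl58, a peptidyl-tRNA hydrolase that became part of the ribosome, of 0.13 ± 0.14, and neither passed (adjusted p = 0.706 and 0.486).

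The start regions of 4 named mitochondrial genes, picked after their letters were seen to show each motif and its absence, are set beside the cytosolic ones, in the same window of 25 bases on each side. They lie at chr20:2842981-2843030 (Mrps18b, plus strand), chr6:30553963-30554012 (Mrpl33, minus), chr9:88555025-88555074 (Mrpl44, plus) and chr5:127074943-127074992 (Mrpl37, minus). Capitals mark a pyrimidine run of at least 8 in Mrpl44, and otherwise CCGGAAG, the core letters bound by ETS factors such as Gabpa, or GCGCATG, letters from the palindrome that Nrf1 binds, on either strand. In Mrps18b that motif is met on both strands, and the matches overlap.
Mrps18b: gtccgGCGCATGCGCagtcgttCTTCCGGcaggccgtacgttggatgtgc
Mrpl33: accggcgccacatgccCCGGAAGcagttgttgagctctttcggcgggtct
Mrpl44: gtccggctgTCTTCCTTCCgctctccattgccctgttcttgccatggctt
Mrpl37: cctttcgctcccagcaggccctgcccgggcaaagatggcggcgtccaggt
Mrpl37 held none of these in this window, and the run of Mrpl44 lies wholly before the annotated start, from base -16 on. Over the full 300 bases of the RefSeq promoters, searched on both strands, CCGGAAG was present in 19 of 57 mitochondrial (33.3%) and 9 of 37 cytosolic promoters (24.3%), against 9.22% of 27457 genes. GCGCATG was present in 6 of 57 mitochondrial (10.5%) and 3 of 37 cytosolic promoters (8.11%), against 3.94% of all. Read on the other strand, CCGGAAG starts with pyrimidines and can overlap a pyrimidine run. Mitochondrial genes with a run had a median change of 0.06 (n = 14) and those without one of 0.04 (n = 43).

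Set side by side, the median change of cytosolic genes was 0.25 above that of mitochondrial genes on the signals as deposited, but 0.10 below it after quantile normalisation (a difference of -0.10) and 0.08 below it after cyclic loess (-0.08). Relative to the median of all genes tested, cytosolic genes stood at 0.34 as deposited and 0.01 after quantile normalisation, and mitochondrial genes at 0.09 and 0.11. The interquartile range was 0.18 for cytosolic and 0.45 for mitochondrial genes, against 0.70 for all genes tested. Mean signals ran from 403 to 20286 in cytosolic and from 187 to 3013 in mitochondrial genes.

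Ribosomal or ribosome-bound proteins whose symbols fall outside the pattern gave 3 higher and 0 lower of 7 tested, too few to set beside the shares of all probe sets. Aurkaip1, a protein of the mitochondrial small subunit, had 925, 1001 and 747 in dexamethasone and 479, 484 and 642 in control cultures, without overlap (0.74 ± 0.18, adjusted p = 0.0130). Oxa1l, the inner membrane insertase on which mitochondrial ribosomes dock, rose by 0.61 (adjusted p = 0.00498), and Rack1, a scaffold on the cytosolic small subunit, by 0.33 (adjusted p = 0.0219). After quantile normalisation Rack1 was no longer called (0.06, adjusted p = 0.475).

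Of 8 tested genes of rRNA transcription by RNA polymerase I, 2 rose and 0 fell (25% and 0%, against 15.9% and 21.2% of all probe sets). The rises were those of Polr1b (0.66 ± 0.17, adjusted p = 0.0165) and Polr1d, shared with RNA polymerase III (0.44 ± 0.12, adjusted p = 0.0216). Of 73 tested genes for assembly of the cytosolic ribosome, 7 rose and 12 fell, with a median of -0.00. Both shares (9.59% and 16.4%) are below the 15.9% and 21.2% of all probe sets. Without pairs 1, 2 and 3, 10, 8 and 12 genes were called. The balance moved with the processing. Quantile normalisation gave 8 higher and 5 lower (17.1% and 18.5% of all probe sets). Scaling on the hybridisation controls gave 3 higher and 17 lower (8.17% and 34.2%). Sbds, which releases Eif6 from new large subunits, led the rises with 1134, 1039.9 and 1115 in dexamethasone and 563, 556 and 551 in control cultures (0.98 ± 0.13, adjusted p = 0.000564). These groups were far apart, with little spread inside either. Nop16 and Nop53, large subunit assembly factors of the nucleolus, rose by 0.63 and 0.57 (adjusted p = 0.00291 and 0.00338).

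The falls were led by Fbl, the methyltransferase of the box C/D particles that modify rRNA, with 1260.1, 1084 and 1054 in dexamethasone and 2006, 2634 and 2363 in control cultures (-1.04 ± 0.15, adjusted p = 0.0007). Nop56, its partner in the same particle, had 1382, 1528 and 1419 in dexamethasone and 2504, 2859.7 and 2632 in control cultures (-0.88 ± 0.11, adjusted p = 0.000377). In both genes each dexamethasone signal was below each control signal. Bmt2 had 316, 611 and 425 in dexamethasone and 1060.4, 569.8 and 974 in control cultures, which overlap (-0.95 ± 0.30, adjusted p = 0.0334). It is named after a yeast rRNA methyltransferase, but in human cells its product is known as SAMTOR, a sensor of S-adenosylmethionine for mTORC1. Nop58, the other scaffold of the box C/D particle, fell by 0.77 on the log2 scale (adjusted p = 0.00916). The box H/ACA proteins, which guide pseudouridylation and were picked out after their values were seen, were split. Gar1 rose (0.53 ± 0.14, adjusted p = 0.0151), Nhp2 fell (-0.44 ± 0.14, adjusted p = 0.0324), and Dkc1 and Nop10 had changes of -0.18 and 0.21 that did not pass (adjusted p = 0.458 and 0.126).

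**Figure D5:**
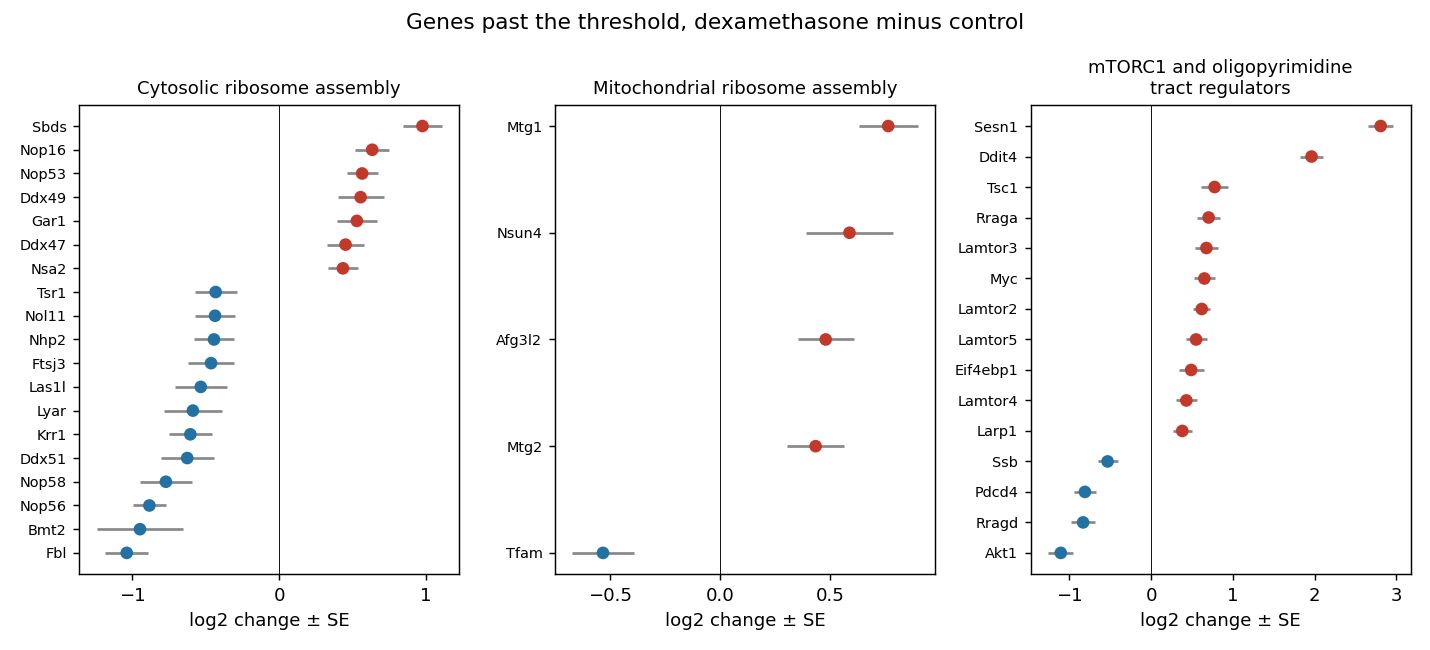
Log2 change, dexamethasone minus control, with its standard error (bars) for the genes past the threshold in each of 3 lists: assembly of the cytosolic ribosome (7 higher, 12 lower), assembly of the mitochondrial ribosome (4 higher, 1 lower), and mTORC1 with regulators of oligopyrimidine tract mRNAs (11 higher, 4 lower). Red points are higher and blue points lower, and the horizontal scales differ between panels. The fall in the mitochondrial list is that of Tfam, a factor of mitochondrial transcription.

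The list for assembly of the mitochondrial ribosome also held factors of mitochondrial transcription. Of its 19 tested genes, 4 rose and 1 fell, with a median of 0.21 (21.1% and 5.26%, against 15.9% and 21.2% of all probe sets). Without pair 1, 2 were higher and 0 lower, and without pair 2 or pair 3, 1 was higher and 1 lower. Mtg1, a GTPase that acts on the large subunit, had 1492, 1255 and 1377 in dexamethasone and 788, 848 and 783 in control cultures, without overlap (0.77 ± 0.13, adjusted p = 0.00234). Nsun4, an rRNA methyltransferase, rose by 0.59 and Afg3l2, a protease that matures Mrpl32 in mice, by 0.48 (adjusted p = 0.0431 and 0.0171). The gene that fell was Tfam, the packaging and transcription factor of mitochondrial DNA (-0.53 ± 0.14, adjusted p = 0.0165).

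Other mRNAs known for an oligopyrimidine tract gave 8 higher and 2 lower of 23 tested (34.8% and 8.70%, against 15.9% and 21.2% of all probe sets), with a median of 0.23, and 3 higher and 3 lower after quantile normalisation, with a median of 0.01. Gas5, a host RNA of box C/D guide RNAs, had 3685, 4237 and 3482 in dexamethasone and 2132, 2359.7 and 1932 in control cultures (0.83 ± 0.10, adjusted p = 0.00039). The groups were apart in every array. Eif2s3, a subunit of the factor that brings the initiator tRNA, rose by 0.71, and Pabpc4, a poly(A)-binding protein, by 0.47 (adjusted p = 0.0147 and 0.00572). Hnrnpa1, a splicing factor, had 1585, 1814 and 1801 in dexamethasone and 3317, 3355 and 3359 in control cultures, without overlap (-0.95 ± 0.11, adjusted p = 0.000241). Nap1l1, a histone chaperone, fell by 0.37 on the log2 scale (adjusted p = 0.0445).

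Among mTORC1 genes and regulators of oligopyrimidine tract mRNAs, 11 of 34 tested rose and 4 fell (32.4% and 11.8%, against 15.9% and 21.2% of all probe sets), and the list holds both activators and inhibitors. Sesn1, an inhibitor of mTORC1 under amino acid shortage, had 899, 1204 and 1329.9 in dexamethasone and 119.8, 163 and 215 in control cultures (2.81 ± 0.15, adjusted p = 3.11e-06). Ddit4, an inhibitor acting through the Tsc complex and known as a glucocorticoid target, had 3102, 4673 and 2614 in dexamethasone and 768, 979.7 and 851 in control cultures (1.96 ± 0.14, adjusted p = 1.69e-05). Neither gene had any overlap between the groups. Tsc1, a subunit of that complex, rose by 0.78 (adjusted p = 0.00623). Akt1, a kinase that activates mTORC1, had 1119.8, 852 and 858 in dexamethasone and 1844, 2310.4 and 1909 in control cultures, without overlap (-1.10 ± 0.15, adjusted p = 0.000702). Rragd, a GTPase that recruits mTORC1 to the lysosome, fell by 0.83 and Pdcd4, an inhibitor of the helicase Eif4a, by 0.81 on the log2 scale (adjusted p = 0.00219 and 0.0016).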

How the data were processed

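The deposited table of the 6 arrays holds 1 linear intensity for each probe set, the MAS5 signal. The submitters' processing notes name GCOS and MAS5 as the authors' tools. Their versions and scaling settings are not given in the sources used here. Of 15923 probe sets, 57 array controls were left out, 4 values of 0 were set to 0.1, and signals were taken to log2 without further normalization. The test took the 9520 probe sets at or above the 40th percentile of mean log2 signal (a signal of 148). In R 4.3.3, limma 3.58.1 fitted treatment plus a replicate block (lmFit), moderated variances along the intensity trend (eBayes) and adjusted by Benjamini-Hochberg. The fit was tested on simulated data. Background was the highest signal of 27 Bacillus subtilis control probe sets, from 51.7 to 115.9 per array, and the 3 arrays per group limit the precision.

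The pairing comes from the series' design text. Deviations of same-numbered cultures from their group means correlated at -0.10, 0.11 and 0.21 in pairs 1 to 3. Those of differently numbered cultures correlated at -0.25 to 0.18, so these values do not single out the stated pairing.

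Genes were named from GEO's platform annotation, and 130 of 132 member probe sets matched the RefSeq gene table of GRCr8. Promoters are RefSeq's, 250 bases before to 50 after the start, and the first listed start was used for 2 members with more than 1.

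The members and gene lists were chosen with earlier results of these data known, so counts over a list are descriptions. Named members were the 4 largest rises and falls past the threshold in each subunit that went the same way in all 3 pairs, with paralogue forms, and named list genes the 3 largest rises and falls.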

Additional observations from a re-analysis of the deposited data

How the results depend on the processing

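Cytosolic genes called higher numbered 25 as reported. They numbered 0 after quantile normalisation, 1 after cyclic loess, 1 after scaling on hybridisation controls, 0 with no intensity trend and 5 with no filter. They numbered 33 with 75th percentile centring and 31 with median centring. They numbered 2 without members over 10000, and 3 to 29 with a replicate pair left out. Of all probe sets 15.9% were higher as reported, 17.1% (quantile), 17.4% (loess) and 8.17% (hybridisation controls). With 75th percentile centring 21.4% were higher, and with median centring 18.8%. With no intensity trend 13.7% were higher, with no filter 8.65%, and with a pair left out 10.9% to 13%. Cytosolic calls of lower numbered 0, but 1 after quantile normalisation and 1 among probe sets with several symbols. The cytosolic median of 0.30 became 0.023 (quantile), 0.067 (loess) and 0.052 (hybridisation controls). Relative to the median of all genes tested, it stood at 0.34 as deposited and 0.34 with hybridisation controls, a setting that shifted all genes to -0.29. It stood at 0.01 (quantile) and 0.05 (loess) on that relative scale. The cytosolic minus mitochondrial median of 0.25 became -0.10 (quantile) and -0.078 (loess). The cytosolic large minus small subunit median of -0.01 became 0.15 without members over 10000. As 12 of the 13 tested small subunit genes were over 10000, that value sets the dimmer large subunit genes against Rps27l alone. Mitochondrial genes called higher numbered 12, but 19 with 75th percentile centring (21.4% of all probe sets), 3 with hybridisation controls and 4 to 11 with a pair left out. Mitochondrial calls of lower numbered 7, but 1 (75th percentile), 2 (loess), 15 (hybridisation controls), 2 (median centring) and 4 (no filter). They numbered 4 (no intensity trend), 4 (quantile) and 1 to 5 with a pair left out. Of all probe sets 15.8% (75th percentile), 18.2% (loess), 34.2% (hybridisation controls), 18% (median centring) and 12.2% (no filter) were lower. The lower share was 19.6% (no intensity trend), 18.5% (quantile) and 15.1% to 18.6% with a pair left out. The mitochondrial median of 0.05 became 0.17 (75th percentile) and -0.20 (hybridisation controls), settings that shifted all genes from -0.04 to 0.08 and -0.29. The mitochondrial large minus small subunit median of -0.12 became -0.18 (loess), -0.18 (quantile), -0.16 (dimmest probe set) and -0.067 with Mrps18a and Mrps30 moved. The cause of these differences was not tested.

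Changed genes of the assembly list for cytosolic ribosomes numbered 19, but 12 with no filter and 8 to 12 with a pair left out. As higher and lower they were 7 and 12, but 8 and 5 (quantile), 9 and 6 (loess) and 8 and 6 (median centring). They were 11 and 4 with 75th percentile centring, and 3 and 17 with hybridisation controls. Those of the mitochondrial assembly list numbered 5, but 3 with hybridisation controls and 2 with any pair left out. Those with an oligopyrimidine tract numbered 10, but 5 (loess), 3 (hybridisation controls), 5 (no filter), 4 (no intensity trend), 6 (quantile) and 4 to 9 with a pair left out. Those of RNA polymerase I numbered 2, but 0 (hybridisation controls), 1 (no intensity trend), 1 (quantile) and 0 to 2 with a pair left out. Ribosomal proteins outside the pattern numbered 3, but 1 with hybridisation controls and 1 to 2 with a pair left out. With no replicate block, 3542 probe sets changed against 3531 with the pairing, and 24 cytosolic and 11 mitochondrial genes were higher. Among the mitochondrial genes, Mrpl48 and Mrpl30 then lost their calls. Probe sets with several symbols, the move of Mrps18a and Mrps30 and the bright probe sets outside the family were alternatives chosen after seeing the data. Signals relative to each array's total cannot show a change in RNA per cell, and saturation of very bright probe sets cannot be read from these values.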
